A study of Mus musculus with 12 samples.

Results

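The genes described here are 7 that cytotoxic lymphocytes use: the granule genes Prf1, Gzma and Gzmb, the chemokine gene Xcl1, the receptor genes Klrk1 and Klrd1, and the transcription factor gene Eomes. They were found as the probes whose RefSeq transcript belongs to these mouse genes, and each of the 7 had 1 probe among the 561 gene probes of the panel. The probes target NM_011073.2 (Prf1), NM_010370.2 (Gzma), NM_013542.2 (Gzmb), NM_008510.1 (Xcl1), NM_001083322.1 (Klrk1), NM_010654.2 (Klrd1) and NM_010136.2 (Eomes).

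Skin RNA of 12 female mice, 4 in each of 3 groups, was measured on a NanoString immunology panel for mouse, which counts a barcoded probe for each transcript without amplification. Every mouse, controls included, had received OT2 CD4 T cells, cultured for 10 days into the T helper 2 type, whose transgenic receptor sees an ovalbumin peptide. Skin was frozen when disease first showed, about 3 to 4 weeks after transfer, and littermate skin came from like sites. The comparisons ask how skin with cutaneous lupus erythematosus (CLE) differs from littermate skin and whether a Merkel cell genotype alters it. The 4 CLE mice were of the parental strain, carried rtTA+K5TGO+TLR9ko/ko and had kept Merkel cells, touch receptors at the base of the epidermis. The 4 Merkel het CLE mice carried rtTA+K5TGO+ with Atoh1flox/wt K14Cre+, a genotype that the sample labels tie to a partial loss of Merkel cells. Of these, mice 1 and 2 were TLR9 wt/wt and mice 3 and 4 were TLR9 ko/ko. Littermates 1 and 2 were K14Cre- and had Merkel cells (TLR9 ko/wt and ko/ko), while littermates 3 and 4 were K14Cre+ and ko/ko and had lost part or all of them. Littermate 1 was rtTA-K5TGO- with Atoh1flox/flox, and littermate 2 was rtTA-K5TGO+ with Atoh1wt/wt. Littermate 3 was rtTA-K5TGO+ with Atoh1flox/wt, and littermate 4 was rtTA+K5TGO- with Atoh1flox/flox. No littermate carried both rtTA+ and K5TGO+, the pair with which the labels record expression of the autoantigen. Since all CLE mice were of the parental strain, the Merkel cell genotype and other differences between the strains cannot be told apart. The series description gives all mice as TLR9KO and the Merkel group as having lost its Merkel cells, which differs from the sample labels. K14Cre acts in keratin-14-expressing epithelium, and Atoh1 is needed for Merkel cells to form. The sources used here give no ages.

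Cytotoxic T cells and natural killer (NK) cells kill by releasing granules onto a target cell. Perforin, encoded by Prf1, forms pores in the target membrane, and granzymes A and B, serine proteases encoded by Gzma and Gzmb, enter and trigger cell death. NKG2D, encoded by Klrk1, recognises stress-induced ligands, and CD94, encoded by Klrd1, pairs with NKG2 chains to read a nonclassical MHC molecule. Lymphotactin, encoded by Xcl1, attracts Xcr1-bearing dendritic cells, and Eomes is a T-box factor of NK cells and memory CD8 T cells. In mouse skin some of these genes are also used by resident T cells of the epidermis.

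The promoter windows of the granule and chemokine genes are shown because Prf1 and Xcl1 passed a test between groups. Prf1 did so with all 4 Merkel het CLE libraries at background, so its pass measures no size of change. Gzma and Gzmb passed no test and had their highest values in CLE skin. The windows come from RefSeq on build GRCm38.p6. They run 5′ to 3′ along the gene, from 250 bases before to 50 bases after its start. Windows were found for 6 of the 7 genes, and Klrd1 had none. Capitals mark literal matches, on either strand, to GGAAGT (an ETS core), GTGTGA (a T-box core) or TGTGGT (a RUNX core). No match overlapped another. Prf1 is at chr10:61297586-61297885 on the + strand, Gzma at chr13:113100932-113101231, Gzmb at chr14:56262285-56262584 and Xcl1 at chr1:164935473-164935772, these last 3 on the - strand.
Prf1: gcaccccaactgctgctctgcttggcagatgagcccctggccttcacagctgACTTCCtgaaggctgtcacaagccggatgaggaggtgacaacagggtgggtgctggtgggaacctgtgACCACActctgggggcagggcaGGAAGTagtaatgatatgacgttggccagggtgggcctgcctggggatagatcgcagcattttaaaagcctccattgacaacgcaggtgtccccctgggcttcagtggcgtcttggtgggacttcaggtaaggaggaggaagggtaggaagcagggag
Gzma: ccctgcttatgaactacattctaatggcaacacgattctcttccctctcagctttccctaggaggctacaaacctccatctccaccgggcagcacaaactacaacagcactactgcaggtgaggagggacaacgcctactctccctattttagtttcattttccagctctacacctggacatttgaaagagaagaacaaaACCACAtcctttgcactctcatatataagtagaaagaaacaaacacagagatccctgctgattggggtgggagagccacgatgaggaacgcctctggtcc
Gzmb: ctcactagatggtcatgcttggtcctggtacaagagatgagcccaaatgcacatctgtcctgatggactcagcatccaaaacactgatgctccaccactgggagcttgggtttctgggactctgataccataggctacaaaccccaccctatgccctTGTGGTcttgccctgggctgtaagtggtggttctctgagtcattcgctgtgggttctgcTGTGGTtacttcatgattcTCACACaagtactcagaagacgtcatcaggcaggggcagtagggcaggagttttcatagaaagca
Xcl1: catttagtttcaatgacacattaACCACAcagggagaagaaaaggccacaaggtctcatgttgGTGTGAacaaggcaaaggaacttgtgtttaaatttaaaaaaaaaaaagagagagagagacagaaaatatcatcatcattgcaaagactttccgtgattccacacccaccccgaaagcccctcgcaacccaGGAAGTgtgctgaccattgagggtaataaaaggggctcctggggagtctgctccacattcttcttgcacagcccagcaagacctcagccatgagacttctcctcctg
Prf1 and Xcl1 hold the ETS letters (2 matches and 1 match), Gzmb and Xcl1 the T-box letters (1 each), and all 4 the RUNX letters. Among all 32851 windows of this length, 23.8%, 14.5% and 16.8% hold the ETS, T-box and RUNX letters. The matches are a description of the sequence and were not tested for binding.

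Values are in units of the deposited signal, which is a count of barcodes multiplied by 1 factor per library. A library's background threshold is the mean plus 2 SD of its 8 negative controls, put on the same scale. Gene counts ran from 99297 in littermate 2 to 682046 in Merkel het CLE 1. Littermate 2, CLE 1 and CLE 2 had the largest factors (4.04, 5.56 and 2.47) and so the highest thresholds, at 116, 106 and 53.2 units, against 17.6 to 33.8 units in the other 9 libraries. The mean negative control thus read 50.04, 62.6 and 27.5 units in these 3 libraries, and 9.66 to 19.4 in the others. Tlr9, the gene named in the genotype labels, read 21.7 to 109 units in littermates, 34.6 to 156 in CLE and 27.4 to 55.8 in Merkel het CLE, and did not separate the genotypes; no source used here places its probe relative to the deletion. Each library is a different mouse, and the 95% Poisson intervals given for counts cover counting error only.

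All 7 genes lay near background in at least some mice. Xcl1 was above its threshold in 12 of 12 libraries, Klrd1 in 11, Gzma in 10, Klrk1 in 9, Gzmb in 6, and Prf1 and Eomes in 5 each. All 7 passed the filter for testing, which asked for 4 of 12 libraries above background. Prf1 passed it through 3 littermates and 2 CLE libraries and no Merkel het CLE library. By library, CLE 4 and littermate 1 had all 7 genes above background and littermate 2 had 2. The other 9 libraries had 4 or 5.

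**Figure D1:**
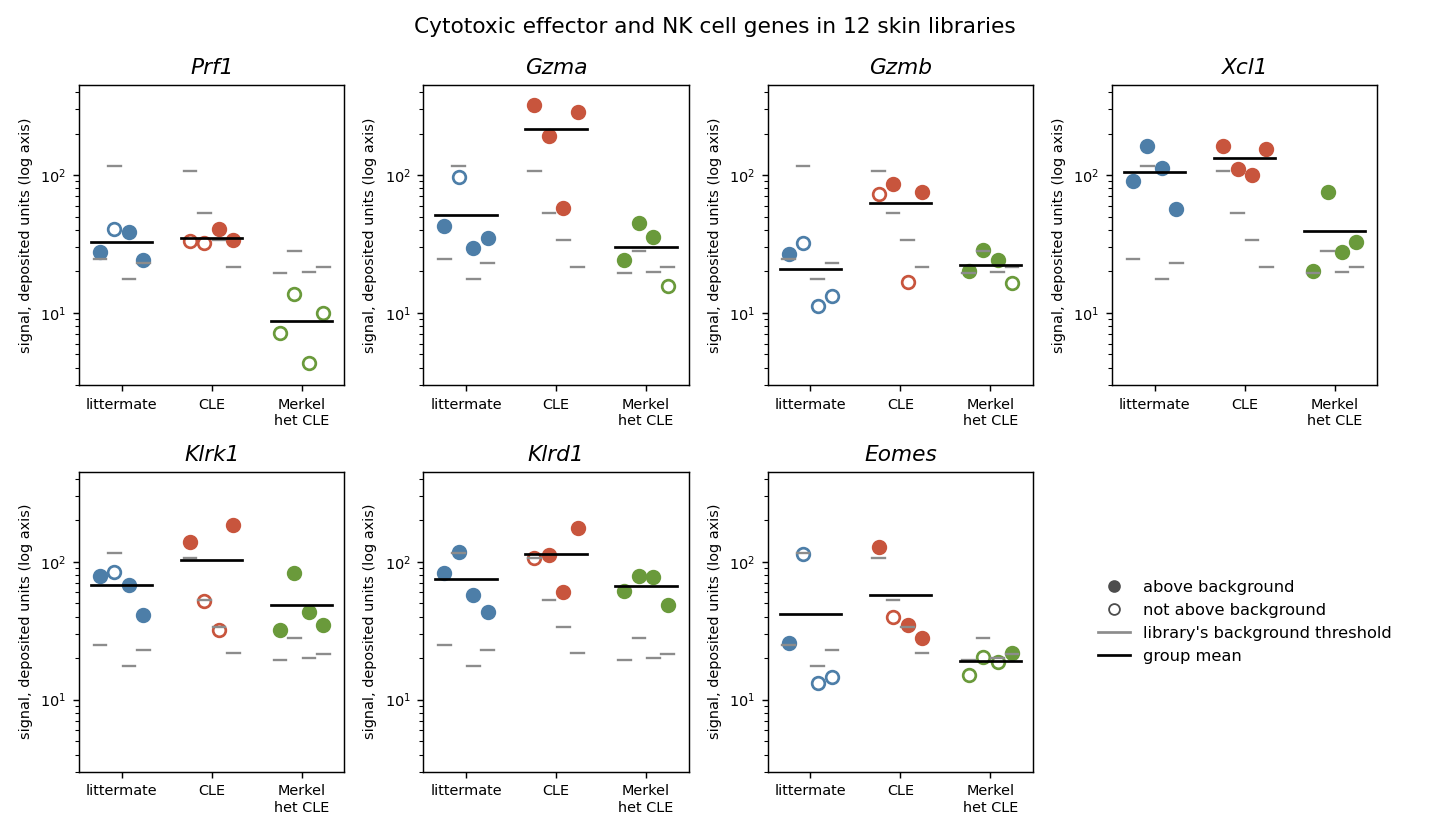
Signal of each gene (deposited units, log axis) in the 12 libraries by group, with replicates 1 to 4 from left to right; filled points are above and open points not above the library's background threshold (short grey bars), and black lines are group means. All 4 Merkel het CLE points of Prf1 are open, at 4.30 to 13.7 units, and 3 of 4 CLE points of Gzma stand at 193 to 323 units.

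**Figure D2:**
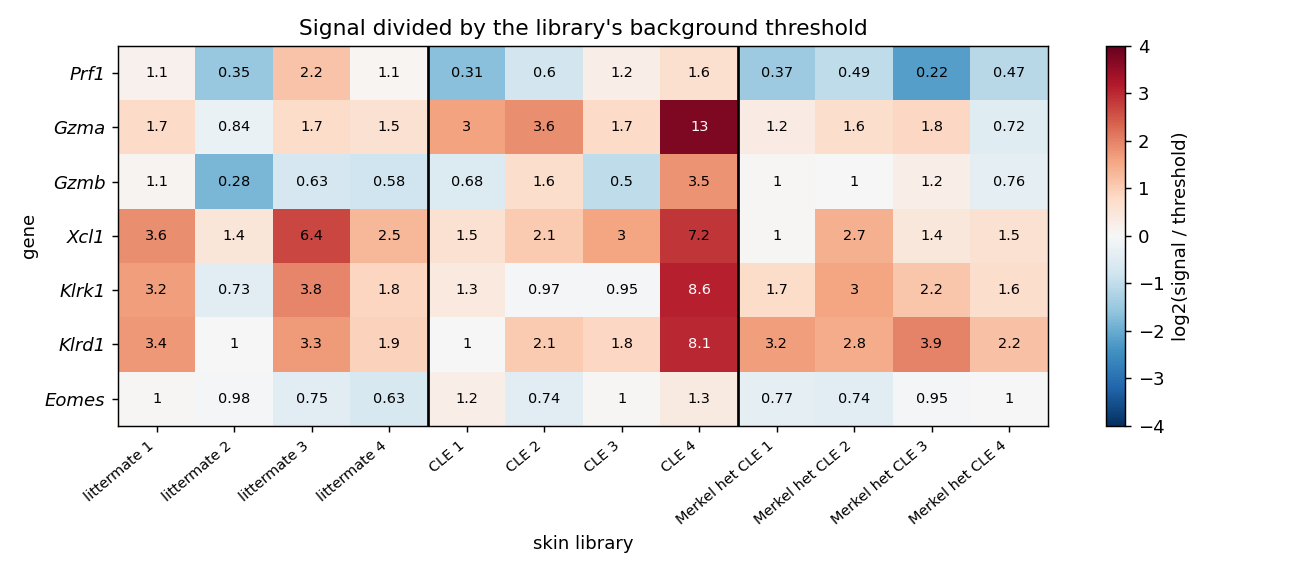
Signal divided by the library's background threshold for the 7 genes (rows) in the 12 libraries (columns), coloured on a log2 scale; 1 is the threshold. CLE 4 reaches 13.2 for Gzma, while Prf1 does not exceed 0.491 in any Merkel het CLE library.

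Perforin transcript was at background in the diseased skin of Merkel het CLE mice, and above it in 3 of 4 littermates and 2 of 4 CLE mice. With a threshold of mean plus 3 SD, only littermate 3 (38 counts against 20.1) and CLE 4 (29 against 23.2) stayed above it. Prf1 read 27.7, 40.4, 38.5 and 24.2 units in littermates 1 to 4. It read 33.4, 32.1, 40.5 and 33.7 units in CLE 1 to 4. It read 7.15, 13.7, 4.30 and 10.1 units in Merkel het CLE 1 to 4. All 4 Merkel het CLE values lay below every value of the other groups, which overlapped each other. As counts, the Merkel het CLE libraries had 10, 14, 5 and 11 Prf1 barcodes, each fewer than the mean of that library's negative controls (13.5, 15.5, 12.6 and 14.5). Littermates 1, 3 and 4 had 28, 38 and 20 counts (95% intervals 18.6 to 40.5, 26.9 to 52.2 and 12.2 to 30.9), against thresholds of 25.1, 17.4 and 18.9. CLE 3 and CLE 4 had 29 counts each, against 24.2 and 18.6. Littermate 2, CLE 1 and CLE 2 had only 10, 6 and 13 counts, below their thresholds, although their scaled values look like those of the other mice in their groups. With each library's negative mean subtracted, littermate 2 and CLE 1 stood at -9.61 and -29.2 units. These lay below all 4 Merkel het CLE libraries (-6.55 to -1.46 units).

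On the log2(signal + 1) scale the fitted Prf1 difference of Merkel het CLE from littermates was -1.85 ± 0.33 (SE, n = 4 per group; limma adjusted p = 0.0114). From CLE it was -1.97 ± 0.33 (adjusted p = 0.0261). Both passed the threshold, but 1 side lay at background in all 4 libraries, and so did 2 of the 4 CLE libraries. Prf1 had entered the test through the other groups alone, so these values are neither measured sizes of a decrease nor bounds on one. Between CLE and littermates the log2 difference was 0.12 ± 0.33 (95% interval -0.59 to 0.83; adjusted p = 0.835), and its sign turned with median centring, quantile normalization and background subtraction. Neither difference passed after the negative controls were subtracted (adjusted p = 0.141 and 0.357), in TLR9 ko/ko mice alone (0.120 and 0.138) or without K14Cre+ littermates (0.125 and 0.0654). That against CLE also did not pass with median centring, quantile normalization or no filter (0.104, 0.117 and 0.0510). With a pseudocount of 16 the differences were -0.97 and -1.05, and both passed. Without littermate 2, CLE 1 and CLE 2 the first held (adjusted p = 0.0184) and the second did not (adjusted p = 0.0708). The difference from littermates did not pass without littermate 3 (adjusted p = 0.0566), and that against CLE did not pass without CLE 2 (0.100) or without Merkel het CLE 1, 3 or 4 (0.145, 0.102 and 0.0794). In whole skin, fewer cells of a type and less RNA per cell cannot be told apart.

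Gzma, encoding granzyme A, had its highest values in CLE skin. Littermates 1 to 4 read 42.5, 97.0, 29.4 and 35.1 units, and CLE 1 to 4 read 323, 193, 57.3 and 285 units. Merkel het CLE 1 to 4 read 24.3, 45.0, 35.2 and 15.6 units. CLE 1, 2 and 4 stood above every other library, CLE 3 lay within the range of the littermates, and the Merkel het CLE values all lay below the CLE values. In counts CLE 4 had 246 (95% interval 216 to 279), CLE 1 had 58 and CLE 2 had 78, each above its threshold. Gzma was not above background in littermate 2 or Merkel het CLE 4.

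The log2 difference of Gzma was 1.95 ± 0.57 for CLE against littermates (SE, n = 4 per group; limma adjusted p = 0.111). It was -0.69 ± 0.57 for Merkel het CLE against littermates (adjusted p = 0.442) and -2.64 ± 0.57 for Merkel het CLE against CLE (adjusted p = 0.0630). None passed the threshold. The first and the third passed without CLE 3, at 2.49 (adjusted p = 0.00670) and -3.18 (adjusted p = 0.00397). The third also passed without Merkel het CLE 2 (adjusted p = 0.0475), with rescaling on reference genes (0.0488) and without a variance trend (0.0472).

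Gzmb, encoding granzyme B, was above background in 1 littermate, 2 CLE and 3 Merkel het CLE libraries. Merkel het CLE 1 to 3 had 28, 29 and 28 counts against thresholds of 27.2, 28.5 and 23.2. With a threshold of mean plus 3 SD, Gzmb stayed above background only in CLE 2 and CLE 4. Its values were 26.7, 32.4, 11.1 and 13.3 units in littermates 1 to 4. They were 72.3, 86.4, 16.8 and 75.4 units in CLE 1 to 4. They were 20.0, 28.4, 24.1 and 16.5 units in Merkel het CLE 1 to 4. As for Gzma, CLE 1, 2 and 4 held the highest values and CLE 3 did not, but the 13 counts of CLE 1 were below its threshold of 19.1. CLE 2 had 35 counts and CLE 4 had 65, both above background. The log2 difference was 1.44 ± 0.51 for CLE against littermates and -1.25 ± 0.51 between the diseased groups, Merkel het CLE minus CLE (limma adjusted p = 0.130 and 0.209). Both passed without CLE 3, at 1.98 and -1.79 (adjusted p = 0.00676 and 0.0254). Merkel het CLE against littermates stood at 0.19 ± 0.51 (adjusted p = 0.827).

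Xcl1, the chemokine gene of activated T and NK cells, was above background in every library. Littermates 1 to 4 read 89.9, 162, 112 and 56.9 units. CLE 1 to 4 read 161, 111, 101 and 155 units. Merkel het CLE 1 to 4 read 20.0, 75.4, 27.5 and 32.9 units. The Merkel het CLE values all lay below the CLE values, and Merkel het CLE 2 lay above littermate 4. Merkel het CLE 1 had 28 counts against a threshold of 27.2.

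Relative to littermates, Xcl1 fell by 1.49 ± 0.43 on the log2 scale in Merkel het CLE skin (SE, n = 4 per group; limma adjusted p = 0.0463). This call rested on each of several libraries. It did not pass without any 1 littermate (adjusted p = 0.107, 0.115, 0.109 and 0.0635 without littermates 1 to 4). Nor did it pass in TLR9 ko/ko mice alone (0.194), without K14Cre+ littermates (0.156), with a pseudocount of 16 (0.0584), with no filter (0.0511), without CLE 2 (0.0575) or without Merkel het CLE 1, 3 or 4 (0.133, 0.120 and 0.0734). Against CLE the difference was -1.89 ± 0.43 (adjusted p = 0.0630). It passed without CLE 3 (0.0305), without Merkel het CLE 2 (0.0185), with reference-gene rescaling (0.0497) and without a variance trend (0.0472). CLE against littermates stood at 0.39 ± 0.43 (95% interval -0.55 to 1.34; adjusted p = 0.552), and turned negative with median centring and quantile normalization.

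No difference of the receptor genes passed in any comparison. Klrk1 read 79.0, 84.9, 67.9 and 41.2 units in littermates 1 to 4. It read 139, 51.8, 32.1 and 186 units in CLE 1 to 4, and 32.2, 83.2, 43.0 and 34.8 units in Merkel het CLE 1 to 4. CLE 3 held the lowest and CLE 4 the highest value of all 12 libraries, so the CLE group spanned the other 2 groups. The log2 differences were 0.30 ± 0.54 for CLE and -0.55 ± 0.54 for Merkel het CLE, each against littermates, and -0.84 ± 0.54 between them (SE, n = 4 per group; limma adjusted p = 0.725, 0.505 and 0.402). The 95% intervals were -0.87 to 1.47, -1.72 to 0.63 and -2.02 to 0.33.

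Klrd1 read 83.0, 117, 57.7 and 43.6 units in littermates 1 to 4. It read 106, 111, 60.1 and 175 units in CLE 1 to 4, and 61.5, 78.3, 78.2 and 48.5 units in Merkel het CLE 1 to 4. All 3 groups overlapped. CLE 4, with 151 counts, was again the highest. The log2 differences were 0.58 ± 0.39, -0.10 ± 0.39 and -0.68 ± 0.39 in the same order of comparisons (limma adjusted p = 0.332, 0.884 and 0.368). Against littermates the 95% interval of the Merkel het CLE difference ran from -0.96 to 0.75, and the sign turned after background subtraction and without littermate 2.

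Eomes could hardly be read above background. Its counts lay between 12 and 28 in all 12 libraries, against thresholds of 17.4 to 28.7. In units it read 25.7, 113, 13.2 and 14.5 in littermates 1 to 4. In CLE 1 to 4 it read 128, 39.5, 34.9 and 27.9, and in Merkel het CLE 1 to 4 it read 15.0, 20.6, 18.9 and 22.0. The highest values, in littermate 2 and CLE 1, came from 28 and 23 counts in the libraries with the largest factors. The Merkel het CLE values lay below all CLE values, at a log2 difference of -1.27 ± 0.64 (SE, n = 4 per group; limma adjusted p = 0.307). Against littermates, CLE stood at 0.75 ± 0.64 and Merkel het CLE at -0.52 ± 0.64 (adjusted p = 0.425 and 0.588). The former was 0.28 without CLE 1 and 1.42 without littermate 2.

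**Figure D3:**
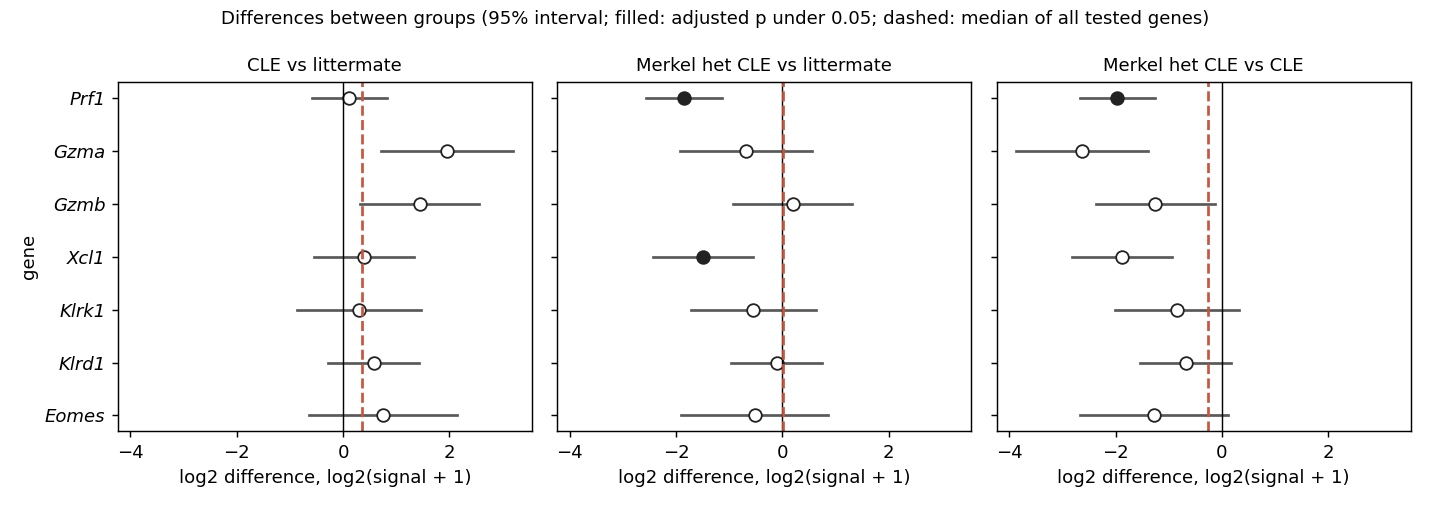
Log2 differences of the 7 genes on the log2(signal + 1) scale in the 3 comparisons, with 95% intervals; filled points passed an adjusted p of 0.05 and the dashed line is the median of all tested genes. Prf1 is filled in both comparisons that involve Merkel het CLE and Xcl1 in that against littermates.

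Across the panel, limma called 0 of 451 tested genes between CLE and littermates (0%; 120 genes at an unadjusted p under 0.05), and 0 of these 7 genes. Without CLE 3 it called 138 genes, Gzma and Gzmb among them. The 7 genes all had positive differences, with a median of 0.58 beside a median of 0.35 over all genes, of which 327 were positive. At an unadjusted p under 0.05 there were 2 of the 7, Gzma and Gzmb, beside 26.6% of all genes. The values of these 2 groups overlapped for each of the 7 genes, and did not overlap for 11.1% of all genes.

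Between Merkel het CLE and littermates, 2 of the 7 genes passed, both lower (Prf1, at background in Merkel het CLE, and Xcl1), beside 11.8% of all tested genes in either direction with 6.87% lower and 4.88% higher. At an unadjusted p under 0.05 there were 2 of the 7 beside 29.7% of all genes. Leaving out 1 library gave between 2 genes called in all, without littermate 3, and 94, without CLE 3. The median of the 7 was -0.55, beside 0.010 over all genes. Only Prf1 of the 7 had groups that did not overlap, beside 30.6% of all genes. With the negative mean subtracted, littermate 2 lay below every Merkel het CLE library for Prf1, so these groups then overlap. Between Merkel het CLE and CLE, Prf1 was the 1 gene called of 451 (0.222%), and 28 genes were called without CLE 3. Prf1 was not above background in any Merkel het CLE library or in CLE 1 and CLE 2, and had passed the filter through the other groups alone. All 7 genes had negative differences with a median of -1.27, beside -0.26 over all genes, of which 311 were negative. The factors of all Merkel het CLE libraries (0.715 to 0.979) lay below those of every other library (0.988 to 5.56). A gene at background reads lower with a lower factor, and the part of this in either comparison was not tested. After background subtraction Gzmb and Klrk1 stood at -0.78 and -0.49, and Prf1, Gzma and Xcl1 at -2.13, -3.37 and -2.16. For Prf1, Gzma, Xcl1 and Eomes the 2 groups did not overlap, beside 7.98% of all genes. For Prf1 this holds for scaled values only, since with the negative mean subtracted CLE 1 lay below every Merkel het CLE library. At an unadjusted p under 0.05 there were 4 of the 7 (Prf1, Gzma, Xcl1 and Gzmb), beside 19.3% of all genes. These comparisons share groups, so the 3 sets of differences are not independent of each other.

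Some mice share a number in their titles, and no source used here says what it means. Merkel het CLE 1 and 2 and littermates 1 and 2 all carry the number 23. Within it, Prf1 read 7.15 and 13.7 units in Merkel het CLE against 27.7 and 40.4 in littermates. Xcl1 read 20.0 and 75.4 against 89.9 and 162. The Merkel het CLE values of Xcl1 were the lower. The Prf1 values give no such order: the 40.4 units of littermate 2 are 10 counts, below the mean of its negative controls (12.4 counts), and after that mean is subtracted it stands at -9.61 units, below Merkel het CLE 1 and 2 at -2.51 and -1.46. All other numbers belong to 1 group each.

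The genes that act with these 7 were taken from 5 lists of related genes. In the list of granule and death-ligand genes, 7 others were measured and 6 tested, and none passed in any of the 3 comparisons. Taking CLE against littermates first, then Merkel het CLE against littermates and against CLE, the list medians were 0.69, -0.26 and -0.94. Fasl, the death ligand of activated T cells, averaged 36.2 ± 9.01 units in littermates, 69.2 ± 31.0 in CLE and 33.8 ± 4.38 in the third group (SD, n = 4). Its log2 difference for CLE against littermates was 0.85 ± 0.35 (limma adjusted p = 0.150), and that of the cytokine gene Tnf was 1.43 ± 0.76 (0.242). Ctsc, which encodes the protease cathepsin C that activates granzymes, averaged 571 ± 116 units in littermates and 1888 ± 937 in Merkel het CLE. Those groups did not overlap, yet the log2 difference of 1.60 ± 0.51 did not pass (adjusted p = 0.0620). The death ligand genes Tnfsf10 and Lta had differences of -1.14 ± 0.42 and -1.25 ± 0.47 for Merkel het CLE against CLE (adjusted p = 0.203 for both). Tnfsf10 stood at -1.04 ± 0.42 against littermates (adjusted p = 0.115). Ifng, the interferon gene of cytotoxic and helper cells, was above background in 0 of 12 libraries and was not tested.

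Of 18 other NK receptor and adaptor genes, 8 were tested and none passed in any comparison; the medians were 0.72, -0.12 and -0.74. Tyrobp, the adaptor that myeloid cells share with NK cells, had log2 differences of 1.78 ± 0.68 and 1.32 ± 0.68 in the diseased groups, CLE first, against littermates (limma adjusted p = 0.131 and 0.218). Hcst, the adaptor DAP10 that signals for NKG2D, stood at 0.95 ± 0.43 for CLE against littermates (adjusted p = 0.181). For Merkel het CLE against CLE, Cd244a, the receptor 2B4, stood at -1.29 ± 0.45 and Klrc1, the NKG2A chain that pairs with CD94, at -1.32 ± 0.48 (adjusted p = 0.203 for both). Klrc2, the NKG2C chain, stood at -0.51 ± 0.48 for Merkel het CLE against littermates (adjusted p = 0.487). Klrc3, Klra1 and Cd160 were above background in 0 of 12 libraries.

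Of 4 ligands and partners, 3 were tested and none passed; the medians were 0.60, 0.33 and -0.54. B2m, the light chain of MHC class I, had log2 differences of 0.50 ± 0.31, -0.42 ± 0.31 and -0.91 ± 0.31 (limma adjusted p = 0.298, 0.389 and 0.197), and Merkel het CLE and CLE did not overlap. Cd48, the ligand of 2B4, stood at 0.87 ± 0.51 for CLE against littermates (adjusted p = 0.272) and at -0.54 ± 0.51 for Merkel het CLE against CLE (0.580). H2-Q10, a class I gene, stood at 0.93 ± 0.54 for Merkel het CLE against littermates (adjusted p = 0.259). Xcr1, the receptor for the Xcl1 product, was above background in 1 of 12 libraries and was not tested.

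Of 11 other transcription factor genes of these cells, 9 were tested. For Merkel het CLE against littermates 1 rose and 2 fell, beside 4.88% and 6.87% of all tested genes. In TLR9 ko/ko mice alone, or without K14Cre+ littermates, limma called 0 of 451 genes in this comparison (77 and 85 at an unadjusted p under 0.05), so these calls and those of the cytokine genes described next ended there. Nfil3, needed for NK cell development, rose by 1.39 ± 0.31 on the log2 scale. Stat5b, which signals for interleukin-2 and interleukin-15, and Gata3, a T cell factor also active in epidermis, fell by 1.17 ± 0.25 and by 1.73 ± 0.38 (limma adjusted p = 0.0246 for all 3). The list median was -0.55. None passed in the other comparisons (medians 0.12 and -0.27). For CLE against littermates Nfil3 stood at 1.17 ± 0.31 and Stat5b at -0.89 ± 0.25 (adjusted p = 0.111 for both). Between the diseased groups, Runx1 stood at 1.05 ± 0.40 and Bcl6 at -0.67 ± 0.30 (adjusted p = 0.203 and 0.244). Tbx21, the T-box factor related to Eomes, was above background in 1 of 12 libraries, in a CLE mouse.

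Of 18 cytokine and receptor genes acting on cytotoxic cells, 15 were tested, and for Merkel het CLE against littermates 3 passed, all lower (median -0.32), beside 6.87% of all tested genes lower. Il12rb2 and Il18r1 encode chains of the interleukin-12 and interleukin-18 receptors, and Il12a a subunit of interleukin-12 itself. Il12rb2 averaged 600 ± 94.6 units in littermates, 167 ± 143 in CLE and 20.3 ± 14.8 in the Merkel het CLE group (SD, n = 4), and was above background in 4, 3 and 1 libraries. Il18r1, above background in all 4 libraries of each group compared, fell by 1.73 ± 0.43 on the log2 scale (limma adjusted p = 0.0295). The fitted differences of Il12rb2 and Il12a were -5.02 ± 0.71 and -1.54 ± 0.41 (adjusted p = 0.00443 and 0.0399). Il12a was above background in 3 littermates and 0 Merkel het CLE libraries, and Il12rb2 in 1 of the latter, so neither value measures the size of a decrease. None of the 15 passed for CLE against littermates (median 0.43) or for Merkel het CLE against CLE (median -0.74). Il27 and Il12rb2 stood at 1.51 ± 0.43 and -2.44 ± 0.71 in the former (adjusted p = 0.111 for both). Il27 and Il2rb, the receptor chain shared by interleukin-2 and interleukin-15, stood at -1.83 ± 0.43 and -1.36 ± 0.35 in the latter (adjusted p = 0.0630 and 0.0776). Il27 was above background in 1 littermate, 3 CLE and 0 Merkel het CLE libraries, so neither of its values measures the size of a change.

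**Figure D4:**
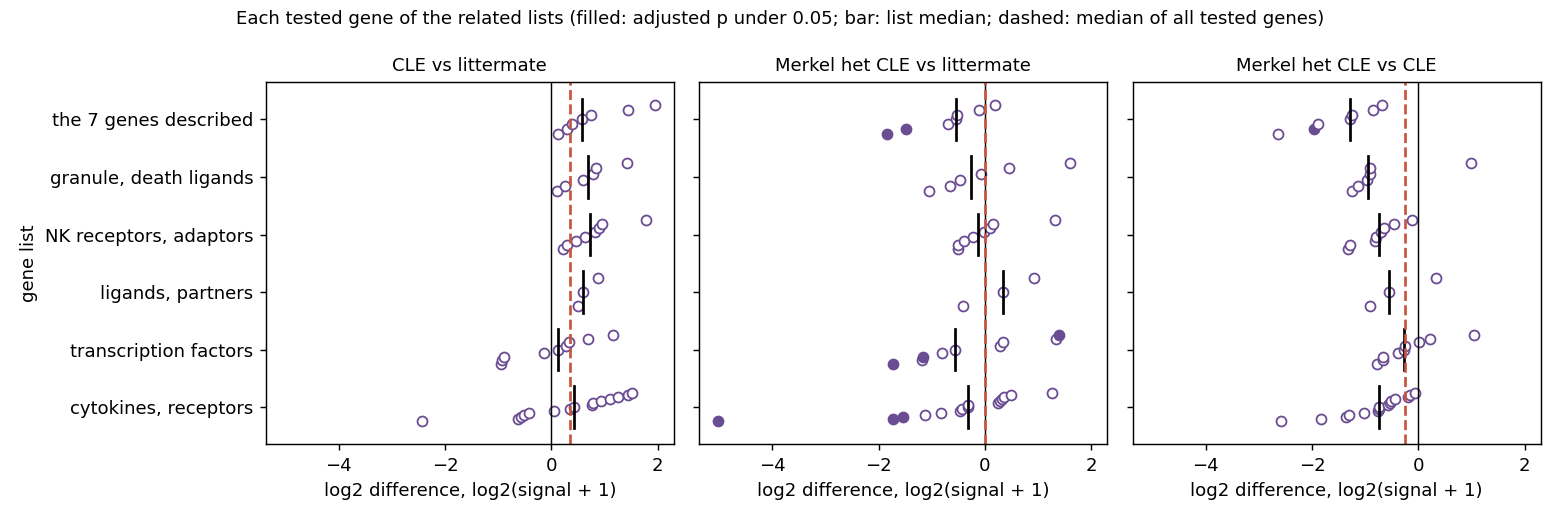
Log2 differences, on the log2(signal + 1) scale, of every tested gene in the 5 related lists and of the 7 genes described, in the 3 comparisons; filled points passed an adjusted p of 0.05, black bars are list medians and the dashed line is the median of all tested genes. Beyond Prf1 and Xcl1, filled points appear only for Merkel het CLE against littermates, at 1 higher and 5 lower genes.

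Markers of the cells that could carry these transcripts were read beside them, as signals summed over each list. Background was not subtracted, so each probe adds it to the sum. The mean negative control read 50.04, 62.6 and 27.5 units in littermate 2, CLE 1 and CLE 2, against 9.66 to 15.2 in Merkel het CLE. Group differences in the sums of weak markers, such as those of NK and CD8 T cells, therefore cannot be read as differences in cells. The 9 measured T cell markers summed to 474 to 780 units in littermates, 527 to 973 in CLE and 303 to 458 in Merkel het CLE. The T cell sum in each Merkel het CLE library thus lay below that of every other library. These units include the background of 9 probes, so this too cannot be read as a difference in cells. Of the 9 markers, 2 were above background in every littermate, 2 in every CLE library and 5 in every Merkel het CLE library. Against littermates, the Merkel het CLE median was lower for Cd3e (31.8 against 126 units) and higher for Cd4 (40.8 against 30.7). The 5 measured NK cell markers summed to 129 to 235, 147 to 350 and 101 to 191 units, and of them Klra1 was above background in 0 libraries, Klra7 and Klra8 in 2 each, Klrc1 in 9 and Klrb1 in 10. The CD8 T cell markers Cd8a and Cd8b1 were each above background in 1 of 12 libraries, a CLE library. Their sum was 26.6 to 80.9, 43.3 to 133 and 17.4 to 44.1 units. The 3 measured markers of resident T cells summed to 207 to 344, 285 to 499 and 121 to 243 units. The part of these cells in the differences of Prf1, Gzma and Xcl1 was not tested.

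Signals of other infiltrating cells were summed in the same way, with background left in and without a test. Only 2 of the 5 B cell markers passed the filter for testing, so background weighs on their sums. The 4 neutrophil markers summed to 117 to 487 units in littermates, 1207 to 236155 in CLE and 9816 to 60974 in Merkel het CLE. The 6 macrophage and monocyte markers summed to 869 to 1419, 867 to 9480 and 1354 to 5530 units, the 5 B cell markers to 100 to 243, 124 to 256 and 74.4 to 95.4 units and the 2 mast cell markers to 34.6 to 71.4, 51.7 to 284 and 116 to 298 units. Their part in the differences of the 7 genes was not tested. No probe was matched to the listed epithelial or Merkel cell markers, so the tissue label and the loss of Merkel cells were not checked here.

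Within the 8 diseased mice, none of the 7 genes followed the skin disease score beyond the spread between mice. Scores were 2.5, 1, 1 and 3 in CLE 1 to 4 and 3, 2, 2 and 2.5 in Merkel het CLE 1 to 4. With group as a term, limma called 0 of 451 genes (0%; 20 genes, or 4.43%, at an unadjusted p under 0.05, none of them among the 7). The slope of Klrk1 was 0.74 ± 0.37 log2 units per score point (SE; adjusted p = 0.718), and that of Gzma was 0.52 ± 0.41 (0.777), or 0.044 without CLE 3. The slopes of Gzmb, Klrd1, Eomes, Xcl1 and Prf1 were 0.34 ± 0.37, 0.30 ± 0.28, 0.11 ± 0.35, 0.058 ± 0.33 and -0.054 ± 0.25. Within CLE, Gzma read 193 and 57.3 units at a score of 1, 323 at 2.5 and 285 at 3. Within Merkel het CLE it read 45.0 and 35.2 units at a score of 2, 15.6 at 2.5 and 24.3 at 3.

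Likeness of pattern was measured as Pearson's r of log2(signal + 1) over the 12 libraries, which share their depth and scaled background, and is given as a description. Among the 7 genes, Xcl1 and Prf1 had the highest r (0.91), followed by Gzma and Gzmb (0.90) and by Klrd1 and Gzmb (0.88). Gzmb and Prf1 had the lowest (0.26). Prf1 and Gzmb were above background in only 5 and 6 of the 12 libraries, so these values rest in part on scaled background. Of the 444 other tested genes, those most like Xcl1 were Cd3d (0.90), Cd3e (0.84) and Cd27 (0.84), chains of the T cell receptor complex and a co-stimulatory receptor. Those most like Gzma were NM_019494.1, a transcript not matched to a symbol here, Fasl and Irf1 (0.91 each), Irf1 being an interferon-induced transcription factor. Klrk1 was most like Klrc1 (0.86), the signalling kinase Map4k1 (0.79) and the receptor Cd226 (0.78). Klrd1 was most like the immunoproteasome subunit Psmb10 (0.91), Tagap (0.91) and the leukocyte sialoglycoprotein Spn (0.89).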

How the data were processed

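The deposited signal of 561 gene probes and 14 control probes in 12 libraries was used. Per the labels, RNA came from a Qiagen kit and was labelled by NanoString's protocol. In the deposited table the gene signal is a count of barcodes times 1 factor per library, as the spacing of the values shows (100% within 0.02 units of a multiple), and control values are whole counts. No source used here says what that factor was made from. A floor of 1 unit holds 3 values of Merkel het CLE 1 and 2 of Merkel het CLE 3. Probes were matched to symbols by RefSeq transcript (549 of 561).

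Genes above background (mean plus 2 SD of the negative controls) in at least 4 of 12 libraries were tested, leaving 451; 98 lay below and 12 reference genes were set aside. Differences were tested with limma 3.58.1 (R 4.3.3) on log2(signal + 1), fitting the 3 group means over all 12 libraries with a trended prior variance. Background was left in and scaled with each library's factor, so differences of low genes can be understated or overstated. P-values were adjusted by Benjamini-Hochberg over 451 genes, with a threshold of 0.05. The score trend used 8 libraries with group as a term. Tables and figures used Python 3.11.15, pandas 2.3.3 and matplotlib 3.10.9, and the fit was tested on simulated data.

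Groups follow the labels, and replicate numbers follow accession order. Members and lists were chosen with earlier results of these data known. The 7 genes are all described; of the related genes, those past the threshold in a comparison are named, or else the 2 with the smallest unadjusted p in each list, and for the 4 members above background in at least 8 libraries the 3 most alike genes. Genes below background, the markers Cd8a, Cd8b1, Klrb1, Klra7 and Klra8 and the pairs of members are named beyond this rule, after their values were seen. Alternatives covered scaling, background subtraction, filters, pseudocount, variance trend, TLR9 genotype, K14Cre+ littermates, title number and leaving out libraries.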

Additional observations from a re-analysis of the deposited data

Results flagged for a closer look

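The difference of Prf1 between the diseased groups, -1.97 on the log2 scale, is also the difference between their 2 contrasts with littermates, and it passed the test (limma adjusted p = 0.0261). Prf1 was above background in 3 littermate, 2 CLE and 0 Merkel het CLE libraries, so the value is not a measured size. For Gzma, Xcl1 and Eomes every CLE library lay above and every Merkel het CLE library below the littermate mean of log2 values. The differences between the diseased groups, -2.64, -1.89 and -1.27, did not pass (limma adjusted p = 0.0630, 0.0630 and 0.307). Littermate 2, not above background for Gzma or Eomes, held the highest littermate value of both (97.0 and 113 units). Without it, Merkel het CLE stood at -0.33 (Gzma) and 0.14 (Eomes) against littermates. Eomes in littermates 3 and 4 (13.2 and 14.5 units) lay below every Merkel het CLE value.

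The highest Eomes value stood far from the others of its group in littermates (113 units, littermate 2) and in CLE (128 units, CLE 1). The gap to the next value was 0.875 and 0.884 of the group's range, above Dixon's 95% critical value for groups of 4. These came from 28 and 23 counts in libraries with the largest factors, and 21 groups of values were checked, of which chance flags about 1 in 20.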

How the results depend on the processing

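Low counts limit all 7 genes: with a threshold of mean plus 3 SD, Prf1, Gzmb and Eomes were above background in 2, 2 and 1 libraries. Genes called for CLE against littermates numbered 0, but 2 with median centring, 9 with quantile normalization, 1 after background subtraction and 0 to 138 leaving out 1 library. For Merkel het CLE against littermates 53 became 85 (median centring), 80 (quantile), 31 (no filter), 23 (above background in all libraries), 34 (pseudocount 16), 0 in TLR9 ko/ko mice alone and 0 without K14Cre+ littermates (77 and 85 at an unadjusted p under 0.05), and 2 to 94 leaving out 1 library. Between the diseased groups 1 became 7 (reference genes), 8 (no variance trend), 3 (without littermate 2 and CLE 1) and 0 with each of median centring, quantile normalization, background subtraction, no filter, the all-library filter, TLR9 ko/ko mice alone and no K14Cre+ littermates (65, 68, 61, 117, 51, 45 and 69 at an unadjusted p under 0.05), and 0 to 28 leaving out 1 library.

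For CLE against littermates the log2 difference turned to -0.36, -0.44 and -0.12 for Prf1 (median centring, quantile, background subtraction), -0.080 and -0.19 for Xcl1 and -0.17 and -0.34 for Klrk1 (median centring, quantile), and -0.036 for Klrd1 (quantile). Without K14Cre+ littermates it was -0.012 for Klrk1 and -0.19 for Eomes. Leaving out 1 library gave -0.012 to 0.23 for Prf1, 1.67 to 2.49 for Gzma, 1.20 to 1.98 for Gzmb, -0.095 to 0.74 for Klrk1 and 0.28 to 1.42 for Eomes.

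For Merkel het CLE against littermates, Prf1 did not pass at -2.25 (background subtracted), -2.17 (TLR9 ko/ko alone) and -1.91 (without K14Cre+ littermates). Xcl1 did not pass at -1.49 (no filter), -1.16 (pseudocount 16), -1.72 (TLR9 ko/ko alone), -1.78 (without K14Cre+ littermates) and -1.25, both without littermate 2 and CLE 1 and without these and CLE 2, the last chosen after seeing the data. Gzmb turned to -0.15 (median centring) and -0.41 (without K14Cre+ littermates). Klrd1 and Eomes turned to 0.085 and 0.060 after background subtraction and 0.14 each without littermate 2 and CLE 1, with or without CLE 2. Leaving out 1 library gave -2.08 to -1.59 for Prf1 (called in 11 of 12), -1.86 to -1.24 for Xcl1 (4 of 12), -0.052 to 0.43 for Gzmb, -0.33 to 0.14 for Klrd1 and -0.86 to 0.14 for Eomes.

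For Merkel het CLE against CLE, Prf1 did not pass at -1.83 (median centring), -1.28 (quantile), -2.13 (background subtracted), -1.97 (no filter), -2.22 (TLR9 ko/ko alone), -1.97 (without K14Cre+ littermates) and -2.05 (without littermate 2, CLE 1 and CLE 2). Gzma and Xcl1 passed at -2.68 and -1.93 (reference genes) and -2.64 and -1.89 (no variance trend). Leaving out 1 library gave -2.19 to -1.70 for Prf1 (called in 8 of 12), -3.18 to -2.35 for Gzma, -1.79 to -1.02 for Gzmb and -2.26 to -1.64 for Xcl1. The score slopes of Xcl1 and Eomes turned to -0.19 and -0.14 with median centring. Leaving out 1 library gave slopes of -0.16 to 0.036 for Prf1, 0.044 to 0.75 for Gzma, -0.19 to 0.75 for Gzmb, -0.078 to 0.25 for Xcl1 and -0.22 to 0.71 for Eomes.

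No paired analysis was possible because the groups share only the title number 23, whose meaning is not stated. With the title number as a random replicate block (consensus correlation 0.213) the counts were 0, 58 and 1 and no call of the 7 genes changed; Prf1 stood at -1.83 and -1.98 (adjusted p = 0.0104 and 0.0491) and Xcl1 at -1.53 against littermates (0.0418). The planned count tests with other tools were not run, because each deposited column mixes scaled gene rows with unscaled control rows and, read whole, did not meet the requirement for a count model. The counts recovered for gene rows served only to set values against background and to give counting intervals. In addition, the filter that asks for all 12 libraries above background leaves Xcl1 as the only one of the 7 with a value. The cause of these changes was not tested.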

Other observations

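CLE 3 and CLE 4 share a title number (167), a genotype and a strain, and had scores of 1 and 3. Between them Gzma read 57.3 and 285 units, Gzmb 16.8 and 75.4, Klrk1 32.1 and 186 and Klrd1 60.1 and 175, while Prf1 read 40.5 and 33.7 and Eomes 34.9 and 27.9. Their counts over all genes were 299756 and 452164.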
